A study of Rattus norvegicus with 6 samples.

Results

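The heat shock proteins and their co-chaperones were examined in the vestibular sensory epithelium of the rat inner ear. The members were all genes in the table whose symbol begins with Hspa, Hspb, Hsp90, Hsph, Hspd, Hspe, Dnaja, Dnajb, Dnajc or Bag followed by digits or letters, and the rule found 80 of the 32883 genes. The animals were adult male rats of the outbred Long-Evans strain. The 3 control rats drank plain water and the drinking water of the 3 treated rats held 20 mM of the nitrile 3,3'-iminodipropionitrile (IDPN) for 4 weeks (IDPN-4wk). IDPN damages vestibular hair cells (HCs), the receptors of the balance organs. From every rat, 2 utricles and 6 cristae were pooled, so that 1 library stands for 1 animal, and the dissected epithelium also holds cells other than HCs.

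Heat shock proteins are molecular chaperones that bind unfolded or partly folded proteins. Hsp70 proteins (Hspa genes) cycle on and off their clients, J-proteins (Dnaj genes) deliver clients to them and stimulate their ATPase, and nucleotide exchange factors such as the BAG and Hsp110 proteins reset them. Small heat shock proteins (Hspb genes) hold denatured proteins without ATP, and Hsp90 proteins finish the folding of kinases and receptors. In the cytosol, many of these genes are induced through heat shock factor 1 (HSF1), whereas the chaperones of the endoplasmic reticulum (ER), led by Hspa5 (BiP) and Hsp90b1 (Grp94), are induced through the unfolded protein response. In the inner ear, inducible Hsp70 is best known for its induction after heat, noise or aminoglycoside exposure.

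The libraries held 13358678 to 18561991 counts. All were from a single batch in the labels. The sample titles carry animal codes, 1 prefix for the 3 treated rats and others for the controls, so whatever the prefix stands for cannot be told apart from treatment. The TMM scaling factors were 0.955 to 0.968 in the controls and 1.03 to 1.05 in IDPN-4wk. HC markers were detected in all libraries and summed to 2478 to 2754 CPM (TMM-scaled normalised counts) in control and 1295 to 1749 CPM in IDPN-4wk, with 9 of 15 downregulated. Supporting cell markers summed to 10487 to 11429 and 5743 to 7145 CPM, with 3 of 11 downregulated. The median log2-Fold change was also negative for Schwann cell markers (-0.55, 5 of 7 lower by adjusted p and none higher), dark cell and melanocyte markers (-0.60, 2 of 7 lower and none higher) and neuron markers (-0.43, 4 of 7 lower and 2 higher). Their sums were 8432 to 10657, 1514 to 1962 and 95.1 to 104.8 CPM in control and 5719 to 8620, 1148 to 1272 and 65.5 to 69.9 CPM in IDPN-4wk, in the same order. In tissue RNA of this kind, fewer cells of a type and less RNA per cell cannot be told apart. For HCs, the authors counted cells in other rats with the same exposure. In 1 batch they found fewer in the crista centre but not in the other regions, and in another experiment fewer in the crista periphery. They calculated that at most a small share of HCs was lost in the sequenced samples.

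Of the 80 members, 75 had enough counts to be tested. The other 5 were Dnajb8 and Dnajc5g, with no count in any library, Hspb9 and Hspb3, with at most 1 and 2 counts in a library, and Dnajb7, with at most 11 counts. Where no count was seen, up to 3 counts remain possible, or 0.155 to 0.216 CPM depending on the library, and such limits cover counting error only. A gene was called upregulated or downregulated when its adjusted p (Padj) in the edgeR quasi-likelihood test was under 0.05 and its fold change over 1.5. By this rule, 2 members were upregulated (2.67% of those tested, against 3.09% of all 14352 genes) and 3 were downregulated (4% against 6.62%). Without IDPN-4wk 1, 5 were downregulated, Dnajc3 and Dnajc19 being added. Both shares lay below those of all genes, so the calls of the family as a whole were not above background. A further 11 members passed Padj without the fold change, which made 6 higher (8%, all genes 7.89%) and 10 lower (13.3%, all genes 11.5%). In either direction, 5 members passed both thresholds (6.67%, all genes 9.71%) and 16 passed Padj (21.3%, all genes 19.4%). The groups did not overlap in 34 members (45.3%, all genes 37.8%). The median log2-Fold change was 0.0074 over the members and 0.0194 over all genes tested.

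**Figure D1:**
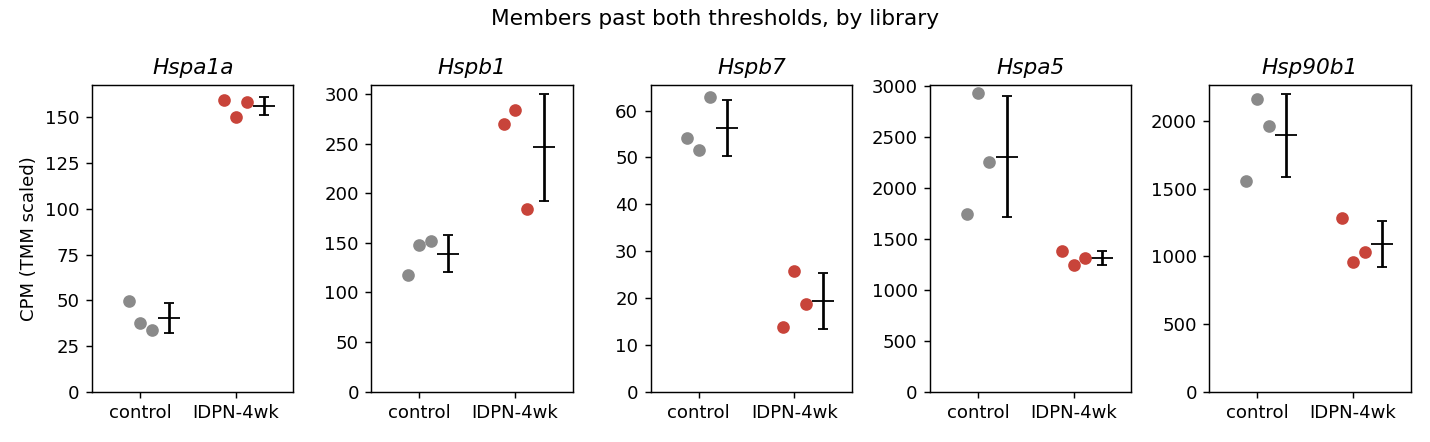
Level of the 5 members called up- or downregulated, in TMM-scaled CPM on linear axes that start at 0, for 3 control (grey) and 3 IDPN-4wk (red) libraries. Points are libraries, the black marks beside them are mean and SD, and in all 5 genes the groups do not overlap.

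The cytosolic Hsp70 genes included the most upregulated member. Hspa1a (ENSRNOG00000045654), the classical stress-inducible Hsp70, was at 49.8, 37.6 and 34.0 CPM in the control libraries and at 159.7, 150.4 and 159 CPM in IDPN-4wk. The 3 treated animals lay close together and every one of them was well above the highest control. The log2-Fold change was 1.95 (SE 0.12, edgeR Padj 8.48e-06). Hspa1a and its near-identical copy Hspa1b were to be counted together, but a row for Hspa1b was not analysed here, so the value is that of the Hspa1a row and how reads were split between the copies is uncertain.

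The constitutive relatives of Hspa1a moved much less. Hspa8 (ENSRNOG00000034066), the cognate Hsp70 of the unstressed cell, stood at 1521, 1594 and 1513 CPM in control and at 1657, 1886 and 1637 CPM in IDPN-4wk. These groups did not overlap, yet the log2-Fold change was only 0.16 (SE 0.08) and did not pass the test (edgeR Padj 0.166). With library size alone as the scaling, which shifts all genes upwards, it was 0.27 and passed (edgeR Padj 0.026). Hspa2, a testis-enriched Hsp70 also found in other tissues, was lower by edgeR Padj (0.0475) at a log2-Fold change of -0.27, with 272, 250.5 and 250.2 CPM in control and 223, 189 and 229 CPM in IDPN-4wk. Hspa1l, the gene next to Hspa1a, was near its detection limit at 0.354 to 2.12 CPM and its log2-Fold change of 0.63 (SE 0.54) did not pass.

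The small heat shock proteins were taken by symbol, as Hspb with a number, so Hspb11 is counted among them whatever its function. Of 6 tested, 1 was upregulated (16.7%, all genes 3.09%) and 1 was downregulated (16.7%, all genes 6.62%). With 1 more that passed Padj alone, 2 were higher by Padj (33.3%, all genes 7.89%). Hspb1 (ENSRNOG00000023546, Hsp27), which holds denatured proteins and protects actin filaments, was at 117, 147 and 152 CPM in control and at 269.5, 284 and 185 CPM in IDPN-4wk. Its log2-Fold change was 0.83 (SE 0.15, edgeR Padj 0.00375), and the third treated animal stood nearer to the controls than to the other 2. Hspb8 (ENSRNOG00000022392, Hsp22), which acts with Bag3 in chaperone-assisted autophagy, was at 112, 97.3 and 107 CPM in control and 149.5, 154 and 148 CPM in IDPN-4wk. It was higher by Padj (8.91e-04 in edgeR) with a log2-Fold change of 0.51 (SE 0.07), below the fold change required.

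Hspb7 (ENSRNOG00000029079), a small heat shock protein best known from cardiac and skeletal muscle, was the most downregulated member. Its control libraries held 54.2, 51.5 and 63.0 CPM and its IDPN-4wk libraries 13.7, 25.7 and 18.7 CPM. All treated libraries were far below the lowest control, and the log2-Fold change was -1.53 (SE 0.19, edgeR Padj 3.12e-04). Its relative Hspb6 (Hsp20), likewise a muscle-enriched protein, was at 78.9 to 89.9 CPM in control and 76.4 to 87.7 CPM in IDPN-4wk (log2-Fold change -0.02, SE 0.08). Skeletal muscle markers were looked at beside Hspb7. Ckm, Myl1 and Tnni2 were at 0 in all libraries, and the sum of the 15 markers was 83.0 to 85.3 CPM in control and 106 to 140.3 CPM in IDPN-4wk. Myh4 alone carried that difference, at 6.44 to 10.7 CPM in control and 40.5 to 71.9 CPM in IDPN-4wk. The other 14 markers summed to 73.8 to 78.6 CPM in control and 65.6 to 74.0 CPM in IDPN-4wk. Of 7 muscle markers tested, Myh4 (log2-Fold change 2.87) and Des (0.69) were upregulated, the other 5 had negative values that did not pass, and the list median was -0.25. The call of Des was lost without control 1, control 3 or any single treated library. The smooth muscle and pericyte markers summed to 223 to 267 CPM and 236 to 264 CPM, with calls that rested on single libraries. The medians of the HC, supporting cell, Schwann cell, dark cell, neuron, smooth muscle (-0.31), endothelium (-0.22) and stroma (-0.03) markers were negative too. The part of all these cell types in the fall of Hspb7, muscle included, was not tested.

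The chaperones and J-proteins of the ER, 12 genes, held 2 of the 3 downregulated members (16.7% of the group, all genes 6.62%). Hspa5 (ENSRNOG00000018294, BiP), the ER Hsp70, was at 1739, 2922 and 2249.8 CPM in control and at 1376, 1246 and 1310.2 CPM in IDPN-4wk. The controls were spread widely, the treated animals were not, and the groups did not overlap. The log2-Fold change was -0.81 (SE 0.15, edgeR Padj 0.00365). Hsp90b1 (ENSRNOG00000026963, Grp94), the ER Hsp90, which folds integrins and Toll-like receptors, was at 1557, 2163 and 1963 CPM in control. In IDPN-4wk it was at 1284, 957 and 1034 CPM, for a log2-Fold change of -0.80 ± 0.13 (SE, edgeR quasi-likelihood Padj 0.00216).

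Other ER members were lower by a smaller amount. Dnajc3 (p58IPK), an ER J-protein that also restrains the kinase PERK, was at 125, 152 and 134 CPM in control and 116, 86.1 and 93.9 CPM in IDPN-4wk. Dnajb11 (ERdj3), the J-protein that brings nascent clients to BiP, was at 101, 129.9 and 110.3 CPM in control and at 87.8, 86.6 and 85.6 CPM in IDPN-4wk. Both passed the edgeR Padj (0.0134 and 0.0139) but not the fold change, with log2-Fold changes of -0.48 (SE 0.11) and -0.39 (SE 0.09). Dnajb12, an ER membrane J-protein, likewise passed Padj (0.0428, log2-Fold change -0.29). Dnajb9 (ERdj4), a J-protein that takes part in the degradation of misfolded ER proteins, was at 71.9 to 95.3 CPM in control and 67.4 to 71.5 CPM in IDPN-4wk, and its edgeR Padj was 0.0591. Dnajc10, an ER reductase with a J domain, did not pass at -0.14 ± 0.07 (SE, edgeR quasi-likelihood Padj 0.209).

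In all, 5 of the 12 ER members were lower by Padj (41.7%, all genes 11.5%) and none was higher (all genes 7.89%), and the median log2-Fold change of the group was -0.23 against 0.0194 over all genes. In 7 of the 12, all treated libraries lay below all controls, which 19.3% of all genes tested also showed. The summed ER members were 4086 to 5944 CPM in control and 2854 to 3374 CPM in IDPN-4wk. Hspa13, also an ER protein, was grouped with the divergent Hsp70 genes and is not among the 12. It did not pass (log2-Fold change -0.05, edgeR Padj 0.694). Control 2 was the highest of its group in 8 of the 12 genes. Without it, Hspa5 (log2-Fold change -0.61, edgeR Padj 0.00664) and Hsp90b1 (-0.69, edgeR Padj 0.0104) both remained downregulated. The medians of the HC, supporting cell, Schwann cell, dark cell and neuron markers were negative as well. So were those of smooth muscle (-0.31), skeletal muscle (-0.25), endothelium (-0.22) and stroma (-0.03) markers. Those of macrophage (0.03) and red blood cell (0.66) markers were positive. The part of these cell types in the lower ER genes was not tested.

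**Figure D2:**
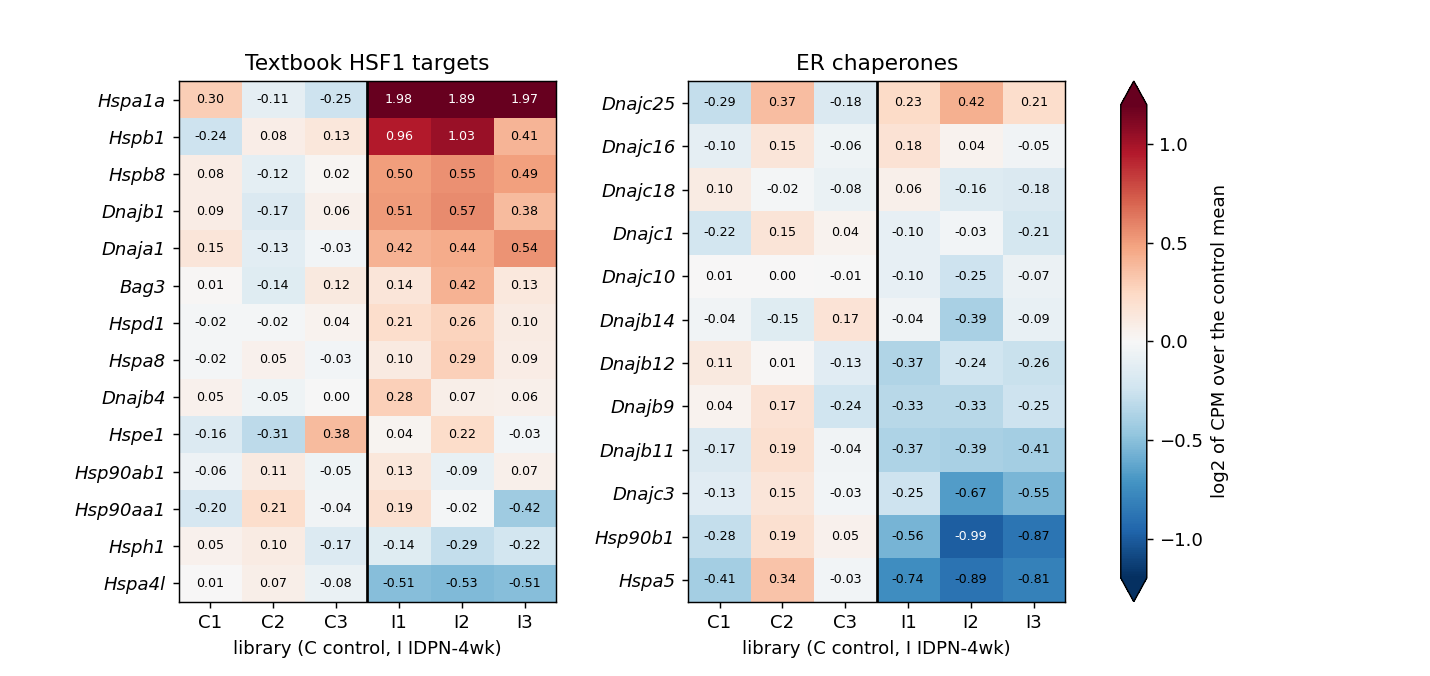
Log2 of the CPM of each library over the control mean of the same gene, for the 14 textbook HSF1 targets among the members (left) and the 12 ER members (right), with C1 to C3 control and I1 to I3 IDPN-4wk. The value stands in each cell and colours end at 1.2 in either direction. On the right, Hspa5, Hsp90b1, Dnajc3, Dnajb11, Dnajb12, Dnajb9, Dnajc10, Dnajb14 and Dnajc1 are below 0 in all treated libraries. C2 is the highest control in 8 genes.

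The promoters of these ER members were examined for the ER stress element, the site through which ATF6 and NF-Y act, since Hspa5 and Hsp90b1 moved together. Windows of 300 bases, from 250 before to 50 after the start of each gene, were taken from RefSeq (build GRCr8) by symbol. They covered 64 of the 80 members, with 65 windows because Bag6 has more than 1. The letters searched were CCAAT and CCACG with any 9 bases between them or, on the other strand, CGTGG and ATTGG with any 9 bases between them. They occurred in 22 of 33469 windows (0.0657%), and in 3 of the 65 member windows (4.62%), those of Hspa5, Hsp90b1 and Dnajc3. All 3 of these members were lower by Padj. They are shown because they are the ER members that carry the element, written 5′ to 3′ on the strand of the gene, with the element in capitals. The windows lie at chr3:38452766-38453065 (Hspa5, plus strand), chr7:23012244-23012543 (Hsp90b1, minus strand) and chr15:102432417-102432716 (Dnajc3, plus strand).
Hspa5: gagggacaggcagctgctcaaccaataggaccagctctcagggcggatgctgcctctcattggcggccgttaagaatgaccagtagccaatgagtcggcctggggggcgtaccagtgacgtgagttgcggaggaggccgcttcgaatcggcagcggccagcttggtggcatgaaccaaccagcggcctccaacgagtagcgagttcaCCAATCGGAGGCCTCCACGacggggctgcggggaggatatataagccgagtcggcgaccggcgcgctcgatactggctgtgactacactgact
Hsp90b1: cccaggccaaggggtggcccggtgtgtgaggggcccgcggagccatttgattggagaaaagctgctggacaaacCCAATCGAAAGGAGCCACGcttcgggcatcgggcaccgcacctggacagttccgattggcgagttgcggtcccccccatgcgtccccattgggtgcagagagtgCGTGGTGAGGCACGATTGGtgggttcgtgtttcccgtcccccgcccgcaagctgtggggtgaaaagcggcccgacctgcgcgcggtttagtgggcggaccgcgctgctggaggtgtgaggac
Dnajc3: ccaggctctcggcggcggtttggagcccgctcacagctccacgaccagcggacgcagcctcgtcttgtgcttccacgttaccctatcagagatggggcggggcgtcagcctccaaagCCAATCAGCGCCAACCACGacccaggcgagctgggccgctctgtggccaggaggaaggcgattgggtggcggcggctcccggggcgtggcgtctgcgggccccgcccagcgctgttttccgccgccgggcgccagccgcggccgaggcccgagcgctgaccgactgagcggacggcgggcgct

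Hsp90b1 holds the element in both orientations, at -176 to -158 and at -72 to -54 from the start, and Hspa5 and Dnajc3 hold it in the first orientation, at -43 to -25 and -133 to -115. The search was prompted by the values of Hspa5 and Hsp90b1, so those values are no test of the element. Values of other genes with the element are a description, and its part in the lower ER genes was not tested. Of the 13 tested genes with the element that are not members, none was upregulated and 2 were downregulated (15.4%, beside 6.39% of the 10324 tested genes with any window). These were Calr (log2-Fold change -0.59), which encodes the ER lectin calreticulin, and Ero1b (-0.64), an ER oxidase. By Padj, 3 were lower (23.1%, beside 11.3% of genes with any window). Canx, Creld2, Derl3 and Xbp1 were among those that did not pass Padj. The median log2-Fold change of the 13 was -0.24, beside 0.0221 over all genes with a window. A match of letters is a description of the window and does not show that a factor binds there.

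Of all members, 14 are textbook targets of HSF1, most of them cytosolic. Hspa1a and Hspb1 were upregulated, and Hspb8, Dnajb1 and Dnaja1 passed Padj only, which made 5 higher by Padj (35.7%, all genes 7.89%) and 1 lower (7.14%, all genes 11.5%). The J-protein Dnajb1 (ENSRNOG00000021824, Hsp40), the main partner of inducible Hsp70, was at 92.4, 77.0 and 90.5 CPM in control and at 123, 128 and 113 CPM in IDPN-4wk. Dnaja1 (ENSRNOG00000007029), a class A J-protein of the cytosol, was at 178, 147 and 158 CPM in control and 215, 218 and 234 CPM in IDPN-4wk. For both, the treated animals were all above the controls, and the log2-Fold changes were 0.49 (SE 0.09, edgeR Padj 0.00362) and 0.47 (SE 0.08, edgeR Padj 0.00312).

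A single textbook target went the other way past Padj. Hspa4l (ENSRNOG00000010819, Apg-1), an Hsp110-type exchange factor, was at 183, 191 and 172 CPM in control and at 128, 126 and 128 CPM in IDPN-4wk. The libraries of each group lay within a narrow band and the bands were far apart, with a log2-Fold change of -0.52 ± 0.07 (SE, edgeR quasi-likelihood Padj 5.63e-04). Its relative Hspa4 (Apg-2), which is not among the textbook targets, was at 107, 105 and 106 CPM in control and 138, 137 and 115 CPM in IDPN-4wk. Hspa4 was thus higher by edgeR Padj (0.0301, log2-Fold change 0.29), so these close relatives passed the test in opposite directions. The remaining Hsp110 protein, Hsph1 (Hsp105), was at 252, 261 and 217 CPM in control and at 220.0, 199 and 208 CPM in IDPN-4wk. Its groups overlapped and it did not pass (log2-Fold change -0.22, SE 0.08, edgeR Padj 0.0969).

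The other textbook targets did not pass Padj. Bag3, the co-chaperone that joins Hsp70 to Hspb8, was at 29.8, 26.7 and 31.9 CPM in control and 32.5, 39.4 and 32.3 CPM in IDPN-4wk (log2-Fold change 0.24, SE 0.12, edgeR Padj 0.183). Hspd1, the mitochondrial chaperonin Hsp60, was at 149, 149 and 156 CPM in control and 175, 181 and 162 CPM in IDPN-4wk (log2-Fold change 0.19, SE 0.07, edgeR Padj 0.0805). Dnajb4, a cytosolic class B J-protein, was at 51.7, 48.1 and 49.8 CPM in control and 60.7, 52.4 and 52.0 CPM in IDPN-4wk (log2-Fold change 0.14, SE 0.09, edgeR Padj 0.304). In these 3 genes the treated libraries all lay above the controls. Hspd1 passed with library size alone (log2-Fold change 0.30, edgeR Padj 0.0134). Hspe1, the Hsp10 lid of Hsp60, was at 1.94, 1.75 and 2.83 CPM in control and 2.23, 2.53 and 2.12 CPM in IDPN-4wk (log2-Fold change 0.08, SE 0.32). That low level is uncertain, since genomes hold many processed copies of Hspe1 among which reads can be shared.

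The cytosolic Hsp90 genes, which serve kinases and steroid receptors and bind HSF1 itself, gave estimates near 0. Hsp90ab1, the constitutive form, was at 2948, 3326 and 2974 CPM in control and 3377, 2891 and 3225 CPM in IDPN-4wk (log2-Fold change 0.04, SE 0.08). Hsp90aa1, the inducible form, was at 335, 444 and 374 CPM in control and 438, 378 and 286 CPM in IDPN-4wk (log2-Fold change -0.06, SE 0.14). Its libraries ranged widely in both groups, and its sign turned when library size alone was used for scaling or when control 2 or IDPN-4wk 3 was left out. The sign of Hsp90ab1 turned without IDPN-4wk 1.

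Over the 14 textbook targets, 9 had all treated libraries above all controls and 1 had them all below, beside 18.5% and 19.3% of all genes. Their median log2-Fold change was 0.18. Leaving Hspa1a aside, IDPN-4wk 3 was the lowest treated library in 9 of the other 13 genes, with a median log2 ratio to the control mean of 0.0859, against 0.188 and 0.264 in IDPN-4wk 1 and 2. Hspa1a did not share this order, since IDPN-4wk 3 was among its highest libraries. Immediate early genes, which are often raised by dissection, were looked at beside these targets. They summed to 529 to 568 CPM in control and 580 to 679 CPM in IDPN-4wk, with Junb, Atf3 and Zfp36 upregulated of 12 tested (5 without IDPN-4wk 3). In Junb, Atf3 and Zfp36 too, IDPN-4wk 3 was the lowest treated library, and so it was in Fos, Jun, Egr1, Ier2 and Ier3. The order was not shared by Nr4a1 and Btg2, where IDPN-4wk 3 was the highest, or by Egr2 and Dusp1, where IDPN-4wk 1 was the lowest. By in situ hybridisation of cristae dissected in fixative from other rats with the same exposure, the authors found more Atf3 RNA in HCs. Markers of other cell types were also examined. Red blood cell markers summed to 95.3 to 113 CPM in control and 110.4 to 221 CPM in IDPN-4wk, with 1 of 3 upregulated (Hbb, log2-Fold change 0.66), a call lost when any library other than IDPN-4wk 3 was left out. Of 10 macrophage and leukocyte markers, C1qb was upregulated (0.71), though not without control 3 or IDPN-4wk 1, and the sums overlapped (103 to 145 and 91.1 to 177 CPM). Of 6 stroma markers, Col1a1 was upregulated (0.74) and Lum downregulated (-1.42), the list median was -0.03 and the sums overlapped (858 to 1039 and 818 to 923 CPM). The part of these genes and cell types in the higher heat shock genes was not tested.

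The same RefSeq windows were searched for heat shock elements, the binding sites of HSF1, as a pair of units (GAANNTTC or TTCNNGAA) and as 3 units (GAA, TTC and GAA, or TTC, GAA and TTC, each parted by any 2 bases). Each form reads the same set of sites on both strands. Every match to 3 units also counts as pairs. Paired units were in 15.9% of all windows and in 17 of the 65 member windows (26.2%). The longer form with 3 units was in 0.798% of all windows and in 5 member windows (7.69%), those of Hspa8, Hspd1, Hspe1, Hsph1 and Dnaja1. Of these 5 members, only Dnaja1 passed Padj. The 5 windows shown were chosen to set members that rose, Hspb1, Dnajb1 and Dnaja1, beside members with 3 units that did not pass, Hspa8 and Hsph1. They are written 5′ to 3′ on the strand of the gene with the units in capitals. They lie at chr12:26432252-26432551 (Hspb1, minus strand), chr19:41431092-41431391 (Dnajb1, minus strand), chr5:60638154-60638453 (Dnaja1, plus strand), chr8:50080264-50080563 (Hspa8, plus strand) and chr12:10427118-10427417 (Hsph1, plus strand).
Hspb1: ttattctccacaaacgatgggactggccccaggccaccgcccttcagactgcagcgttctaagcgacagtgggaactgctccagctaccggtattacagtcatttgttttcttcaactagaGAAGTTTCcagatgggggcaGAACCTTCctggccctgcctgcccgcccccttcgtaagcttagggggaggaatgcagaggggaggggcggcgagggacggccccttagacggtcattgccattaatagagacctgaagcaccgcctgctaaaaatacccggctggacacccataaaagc
Dnajb1: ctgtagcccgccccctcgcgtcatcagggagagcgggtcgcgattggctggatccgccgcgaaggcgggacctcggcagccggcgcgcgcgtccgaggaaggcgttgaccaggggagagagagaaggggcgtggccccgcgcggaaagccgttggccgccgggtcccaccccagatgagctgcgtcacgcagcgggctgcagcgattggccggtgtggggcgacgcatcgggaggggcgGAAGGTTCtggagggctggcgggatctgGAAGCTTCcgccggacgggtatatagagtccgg
Dnaja1: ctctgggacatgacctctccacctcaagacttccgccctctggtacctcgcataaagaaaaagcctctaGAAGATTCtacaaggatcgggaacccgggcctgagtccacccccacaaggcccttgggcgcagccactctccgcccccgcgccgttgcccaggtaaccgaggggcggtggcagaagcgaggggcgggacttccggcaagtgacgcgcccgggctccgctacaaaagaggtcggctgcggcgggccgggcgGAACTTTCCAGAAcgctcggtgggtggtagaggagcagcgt
Hspa8: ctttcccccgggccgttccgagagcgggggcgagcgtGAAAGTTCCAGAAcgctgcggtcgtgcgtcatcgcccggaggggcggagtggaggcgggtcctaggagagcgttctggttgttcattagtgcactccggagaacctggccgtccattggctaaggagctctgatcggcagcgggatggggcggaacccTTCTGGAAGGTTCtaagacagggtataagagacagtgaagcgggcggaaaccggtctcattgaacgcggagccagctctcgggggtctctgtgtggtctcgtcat
Hsph1: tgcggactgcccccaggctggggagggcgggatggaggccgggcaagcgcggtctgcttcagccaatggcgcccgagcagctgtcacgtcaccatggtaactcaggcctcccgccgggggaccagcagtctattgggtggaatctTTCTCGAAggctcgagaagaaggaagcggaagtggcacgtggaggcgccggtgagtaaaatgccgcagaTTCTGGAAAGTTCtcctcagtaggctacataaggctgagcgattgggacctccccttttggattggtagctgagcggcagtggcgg

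Hspb1 and Dnajb1 hold 2 separate pairs each. Hspa8 holds 3 units both far from and near its start, at -213 to -201 and at -55 to -43, and Hsph1 holds them at -36 to -24. In Dnaja1 they lie after the start, at 9 to 21. Hspb8 has 1 pair, at -23 to -16, and Hspa4l, which was lower, has 1 at 38 to 45. The Hspa1a window holds no match to either form, which says only that these letters are not in this window. Of the 53 tested genes with 3 units, 2 were upregulated (3.77%, beside 2.98% of the genes with any window) and 6 downregulated (11.3%, beside 6.39%). Their log2-Fold changes had a median of -0.018, and those of the 1240 with a pair a median of 0.0188.

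**Figure D3:**
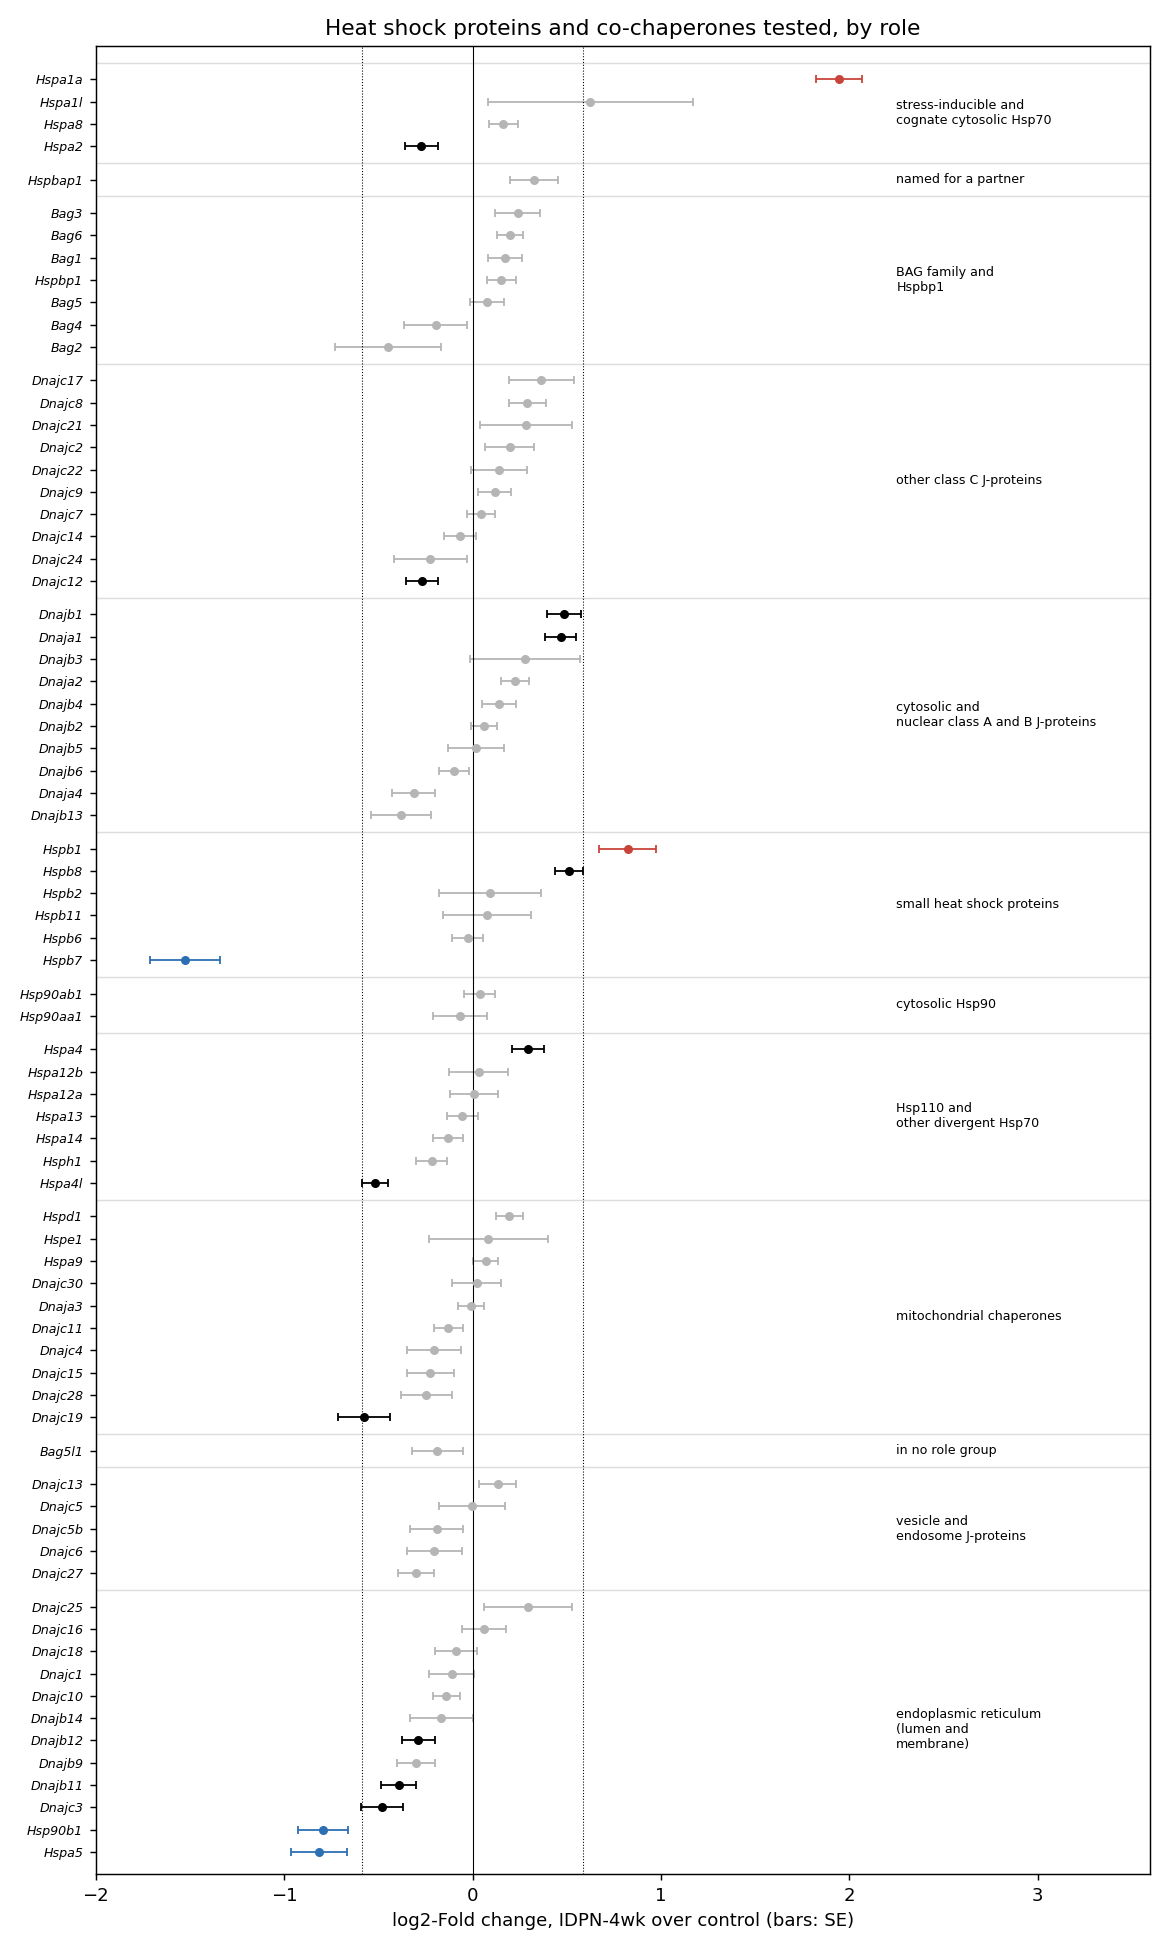
Log2-Fold change of IDPN-4wk over control for the 75 members tested, grouped by role, with the SE as bars and dotted lines at a fold change of 1.5. Red and blue points passed both thresholds, black points passed Padj alone and grey points neither, and 5 of the 12 points of the ER group at the bottom are black or blue, all to the left of 0.

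The remaining role groups held few changes. Of 10 mitochondrial chaperones, only Dnajc19, a J-protein of the inner membrane import motor, passed Padj (10% lower, all genes 11.5%). It was at 20.0, 16.5 and 17.9 CPM in control and at 12.7, 12.8 and 10.9 CPM in IDPN-4wk, with a log2-Fold change of -0.58 ± 0.14 (SE, edgeR quasi-likelihood Padj 0.0145) just short of the fold change required. Hspa9 (mortalin), the mitochondrial Hsp70 on which that motor runs, was at 245, 237 and 245 CPM in control and 246, 266 and 251 CPM in IDPN-4wk (log2-Fold change 0.07, SE 0.07, edgeR Padj 0.514).

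Of the 10 cytosolic and nuclear class A and B J-proteins tested, Dnaja1 and Dnajb1 alone passed Padj (20% higher, all genes 7.89%). The group summed to 781 to 834 CPM in control and to 917 to 942 CPM in IDPN-4wk. Dnaja2, another class A protein, was close to the threshold at a log2-Fold change of 0.22 ± 0.07 (SE, edgeR quasi-likelihood Padj 0.0541). None of the 7 genes of the BAG family and Hspbp1 group passed Padj. In edgeR, 1 of them had an unadjusted p under 0.05, beside 4744 of all 14352 genes. A positive log2-Fold change was seen in 5, beside 7572 of all 14352 genes, and the median was 0.15. Bag6, which guards tail-anchored proteins in the cytosol, came nearest to passing Padj at 0.20 (SE 0.07, edgeR Padj 0.062).

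None of the 5 tested J-proteins of vesicles and endosomes passed Padj in edgeR. The log2-Fold change was negative in 4, beside 6780 of all 14352 genes, and the median was -0.19. An unadjusted p under 0.05 was seen in 1, beside 4744 of all 14352 genes. This was Dnajc27, at -0.30 (SE 0.10, edgeR Padj 0.0543). Its treated libraries all lay below its controls, which 19.3% of all genes also showed. Dnajc5, the cysteine string protein of synaptic vesicles, had a log2-Fold change of -0.0030 (SE 0.17). Dnajc6 (auxilin), which uncoats clathrin vesicles, had -0.20 (SE 0.15). Of the 10 other class C J-proteins, Dnajc12, a co-chaperone of the aromatic amino acid hydroxylases, was lower by Padj (0.0464 in edgeR, log2-Fold change -0.27), which is 10% of the group beside 11.5% of all genes. Hspbap1, named for its binding to Hsp27, did not pass at 0.33 ± 0.13 (SE, edgeR quasi-likelihood Padj 0.0933). Bag5l1, which RefSeq lists as a synonym of Bag5, had -0.19 (SE 0.13) and Bag5 0.08 (SE 0.09), and reads may be shared between their rows.

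The other genes of the chaperone network were taken from lists of textbook partners. Of the heat shock factors and their binding protein Hsbp1, none of 4 tested passed Padj in edgeR. An unadjusted p under 0.05 was seen in 2, beside 4744 of all 14352 genes. The log2-Fold change was 0.28 (SE 0.09, edgeR Padj 0.0553) for Hsf1, 0.28 (SE 0.13) for Hsf2 and 0.47 (SE 0.25) for Hsf4. Of 13 textbook HSF1 targets outside the rule, Hmox1, the inducible haem oxygenase, was upregulated at 0.77 (SE 0.18, edgeR Padj 0.014), 2 more were higher by Padj, Serpinh1 (0.52) and Sqstm1 (0.45), 3 in all (23.1%, all genes 7.89%), and none was lower (all genes 11.5%). Serpinh1 (Hsp47) is the collagen chaperone of the ER, so not every ER chaperone was lower. Hmox1 lost its call without IDPN-4wk 1 or without IDPN-4wk 2, so that no gene of this list was then upregulated. Their median was 0.16, close to the 0.18 of the 14 members.

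Of the 28 tested partners of Hsp90 and Hsp70, 7 (25%) are also among the 13 textbook targets just given (53.8% of those), so the lists are not independent. None of the 28 passed both thresholds in edgeR, and 6 were at an unadjusted p under 0.05, beside 4744 of all 14352 genes. By Padj, 2 were higher (7.14%, all genes 7.89%) and 1 was lower (3.57%, all genes 11.5%). Without control 1, 1 partner passed both. The partner lower by Padj was Sil1, a nucleotide exchange factor of BiP, with a log2-Fold change of -0.43 ± 0.08 (SE, edgeR quasi-likelihood Padj 0.00281). Other ER proteins of the list did not pass. They were Hyou1, the other exchange factor of BiP, at -0.14 (SE 0.41, edgeR Padj 0.841), and Sec63, a J-protein of the translocon, at -0.19 (edgeR Padj 0.277). Of 15 CCT and prefoldin subunits, which fold actin and tubulin, 2 were higher by Padj (13.3%, all genes 7.89%) and none lower. Of 31 proteasome subunits, 5 were higher by Padj (16.1%, all genes 7.89%) and none lower (all genes 11.5%). A positive log2-Fold change was seen in 26, beside 7572 of all 14352 genes, and the median of all 31 was 0.13. None of these CCT, prefoldin and proteasome subunits passed both thresholds in edgeR. An unadjusted p under 0.05 was seen in 4 of the 15 and 12 of the 31, beside 4744 of all 14352 genes.

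**Figure D4:**
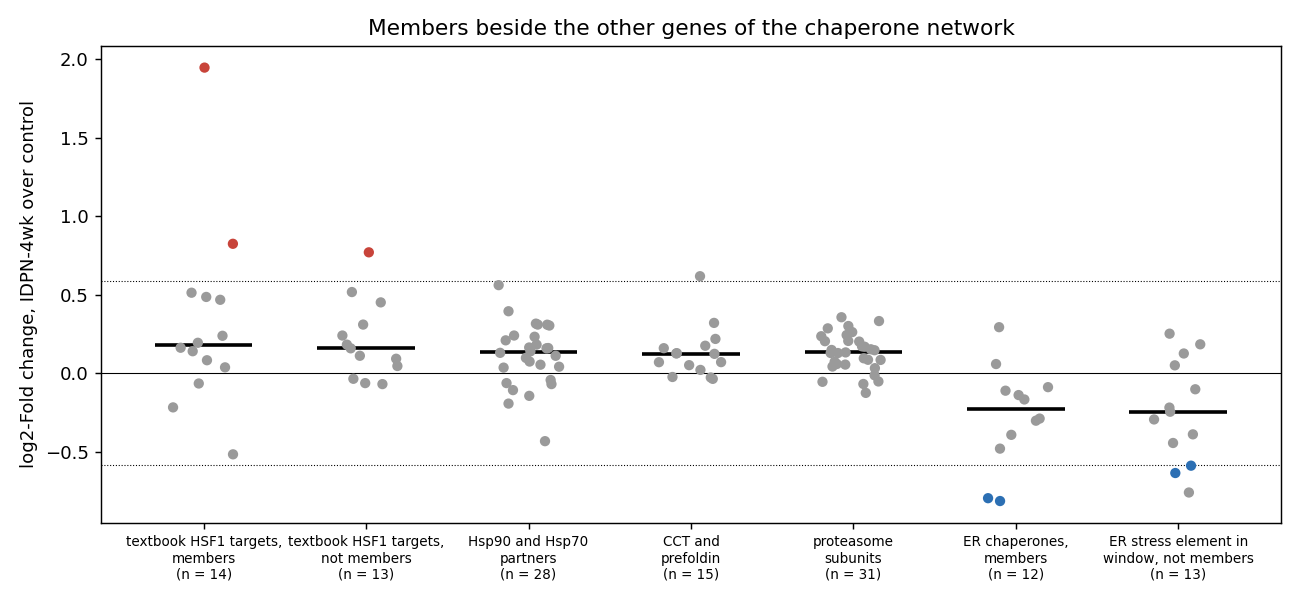
Log2-Fold change of IDPN-4wk over control for the genes of 7 groups, members and others, with 1 point per tested gene in each group (7 genes are both partners and textbook targets that are not members), a black bar at the group median and dotted lines at a fold change of 1.5. Red and blue points passed both thresholds, and the medians of the ER groups lie below 0 (-0.23 for members, -0.24 for other genes with the ER stress element) while those of the other groups, which are mostly but not all cytosolic proteins, lie between 0.12 and 0.18.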

How the data were processed

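Paired-end reads were aligned by the authors with STAR 2.5.3a to the rat build Rnor6.0 and quantified per gene with RSEM 1.3.0, the versions per the submitters' processing notes. The deposited values are the expected counts that the authors obtained with RSEM, whole numbers as deposited. Libraries were made from oligo-dT primed cDNA (SMART-seq2) and do not keep the strand, and RSEM shares reads among near-identical genes. Library depth was 13358678 to 18561991 counts.

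The members and gene lists were chosen with earlier results of these data known. Low genes were dropped by filterByExpr (at least 10 counts, 15 in total), and after TMM scaling the edgeR 4.0.16 quasi-likelihood test (R 4.3.3) compared 3 control with 3 IDPN-4wk libraries without covariates, with Benjamini-Hochberg adjustment over the 14352 genes tested. SEs are of log2-Fold changes, and CPM are TMM scaled. Genes named are the members past Padj 0.05 and a fold change of 1.5, the 14 textbook HSF1 targets, Hspa5, Hsp90b1 and Hspa9, with other members given by group. Members outside this rule that are printed with values were chosen after their values were seen. Alternatives were other scalings, DESeq2 1.42.0, no filter, Padj alone, a test against the fold change (glmTreat) and leaving out each library. The edgeR script was checked on simulated counts. Promoter windows are from RefSeq GRCr8, matched by symbol, whereas counts were made on Rnor6.0.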

Additional observations from a re-analysis of the deposited data

How the results depend on the processing

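Among the 18 members named by rule and the 12 alternatives, 202 of 216 values kept their direction and their call by both thresholds together, 3 were weaker, 6 were stronger and 5 reversed. On Padj alone, 9 values changed side. With library size alone, Hspa8 and Hspd1 passed (Padj 0.026 and 0.0134), and with glmTreat 7 members no longer passed, Dnaja1, Dnajb1, Hspb8 and Hspa4l among them. The log2-Fold change of Hspa1a ranged from 1.84 to 2.13 when a library was left out, and it was upregulated under every alternative. Hspb7 was downregulated under every alternative. With glmTreat, whose null hypothesis is a change of up to 1.5-fold, 1 member was upregulated (Hspa1a) and 1 downregulated (Hspb7), Hspb1, Hspa5 and Hsp90b1 lost their calls (Padj 0.346, 0.368 and 0.341), and over all genes 99 were upregulated and 354 downregulated. With Padj alone, 6 members were higher and 10 lower, and over all genes 1132 and 1646.

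With library size alone, 4 members were upregulated, Hspb8 (log2-Fold change 0.62) and Dnajb1 (0.60) being added, and 762 genes in all. This scaling moved the median log2-Fold change of all genes from 0.0194 to 0.128 and that of the members to 0.115, so these additions are relative to a shifted centre. With the 6 leave-one-out fits, upregulated members numbered 2 each time and downregulated members 3 to 5, the median of the members was -0.0304 to -0.0013, and all genes upregulated were 317 to 486 and downregulated 768 to 1095. The 5 downregulated members were reached without IDPN-4wk 1, when Dnajc3 and Dnajc19 (both -0.62) were added. Dnajc19 passed both thresholds also with DESeq2, with its size factors and without control 2, control 3 or IDPN-4wk 2. In all cases but glmTreat and the shifted centre, the cause was not tested.

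The reversed values were those of Hsp90aa1 (0.0461 with library size alone, 0.0505 without control 2 and 0.0747 without IDPN-4wk 3), Hsp90ab1 (-0.0177 without IDPN-4wk 1) and Hspe1 (-0.0500 without control 2), none of which passed Padj under those settings. When a library was left out, they ranged from -0.217 to 0.0747, from -0.0177 to 0.0971 and from -0.0500 to 0.316. The planned test of Hspa1a and Hspa1b as separate rows gave nothing beyond the value reported, because that value already rests on the Hspa1a row alone. No paired analysis was possible because the labels give no replicate numbers. With 3 libraries a group, small changes and members near the detection limit, such as Hspa1l and Hspe1, stay imprecise.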
